A study of Mus musculus with 27 samples.

Results

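A set of 9 genes, several of them best known from tissues other than the adult brain, was followed across all groups: Afp, Dach2, Ccdc141, Corin, Gbe1, Bmper, Hacd2, Pkib and Tmprss11a. They were picked from 18193 genes with a probe set on the array, of which 12017 were tested, because they were much higher after loss of G9a in both D2 and D1 neurons of the striatum. That selection used the mutant and control values themselves, so the rises with G9a loss are given as a description with no test. The selection asked for no difference between the neuron types and no effect of cocaine, and these were tested. The difference of the rises between the types and that of the mutant levels are still built from the values used to select.

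The measurements came from 27 whole-genome Affymetrix mouse arrays of polyribosome-associated mRNA. It was obtained by translating ribosome affinity purification (TRAP), in which a GFP-tagged ribosomal protein, L10a-GFP, is made in 1 neuron type and its ribosomes are pulled down with their mRNA. All mice were males of 2 to 5 months on a mix of C57BL/6 (the G9a line) and 129/Sv (the BAC line) with 2 generations of C57BL/6 backcrossing, and all of them carried G9a fl/fl, both copies of the G9a gene flanked by loxP sites. D2 mutants carried Drd2-Cre, Drd2-TRAP and G9a fl/fl, and D2 controls carried Drd2-TRAP and G9a fl/fl without Cre. D1 mutants carried Drd1-Cre, Drd1-TRAP and G9a fl/fl, and D1 controls carried Drd1-TRAP and G9a fl/fl without Cre. Mutant against control is therefore also Cre against no Cre, and D2 against D1 also differs in the Cre driver and in the transgene that carries the tag. Mice received 8 daily injections of cocaine at 20 mg/kg or of saline and were taken 2 h after the last. The 8 groups held 4 cocaine and 3 saline arrays of D2 mutants, 4 and 3 of D2 controls, 4 and 3 of D1 mutants, and 4 and 2 of D1 controls.

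G9a, encoded by Ehmt2, is an enzyme that places methyl groups on lysine 9 of histone H3, a mark of silent chromatin, and it works as a pair with the related enzyme GLP. In neurons this pair is known for keeping genes of other tissues and of earlier developmental stages silent. Cre recombinase made under the Drd1 or Drd2 promoter removes the loxP-flanked part of Ehmt2 only in cells that use that promoter, while the ribosome tag enriches the RNA of the same neuron type.

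The labels of 1 array contradict each other. For replicate 4 of the D2 mutant cocaine group the title, the genotype and the description say mutant, whereas the source name says control. On this array Ehmt2 read 8.96, within the 8.68 to 9.38 of the D2 mutants, against 10.67 to 11.01 in the D2 controls. It was kept as a mutant, and the main comparisons of the 9 genes are also given without it. The tests of Ehmt2, of the neighbours and of the gene lists are given with it only. The D2 mutant minus control difference was 1.77 for Bmper and 2.00 for Hacd2 without it, against 1.79 and 2.01 with it.

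The targeted gene was lower in mutants of both types. Ehmt2 averaged 8.98 ± 0.214 in D2 mutants and 10.80 ± 0.13 in D2 controls (log2, SD, n = 7 each), and 8.74 ± 0.452 in D1 mutants (n = 7) against 10.42 ± 0.302 in D1 controls (n = 6). The fit weighted the drugs equally, unlike these means. In it the linear levels were 3.54-fold lower in D2 mutants (limma adjusted p = 4.7e-11) and 3.45-fold lower in D1 mutants (limma adjusted p = 4.49e-10). By drug, the Ehmt2 difference was -1.74 after cocaine and -1.91 after saline in D2 neurons, and -1.29 after cocaine and -2.28 after saline in D1 neurons. The D1 values differed by 1.00 (interval 0.44 to 1.55, unadjusted p = 0.0011), which did not pass over all genes (limma adjusted p = 0.231). Whether the probe set lies in the deleted part is not given in the sources used here. In bulk samples such as these fewer cells of a type and less RNA per cell cannot be told apart. Array medians lay between 5.70 and 5.82. Ttr, a choroid plexus transcript, was high (9.67 to 12.36) on the third replicate of D2 control cocaine, of D1 mutant saline and of D1 control cocaine. The 9 striatal projection neuron markers on the array all exceeded the floor of 6 on some array. Their summed log2 level overlapped between the groups, at 15.63 to 15.81 in D2 mutants, 15.53 to 15.85 in D2 controls, 15.38 to 15.74 in D1 mutants and 15.42 to 15.76 in D1 controls.

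All values below are log2 values after robust multi-array averaging (RMA), so a difference of 1 is a doubling, and levels of different genes are not compared because each probe set has its own brightness. A floor of 6 was used to filter dim genes, and levels under it are called background here without a test of detection. Each of the 9 genes exceeded the floor on all 14 mutant arrays, but 6 of them (Afp, Dach2, Ccdc141, Corin, Pkib and Tmprss11a) passed the filter only through the mutants. Where every control array lay under the floor the fold is a lower bound, computed against 6 and written "at least". The fitted log2 differences of those genes, which enter the tests, also contain the background levels of their controls and are no measure of the size of a rise. For all 9 genes the 14 mutant arrays lay above the 13 control arrays without overlap, which is what they were picked for. For comparison, 8.41% of the tested genes were higher in D2 mutants and 3.10% in D1 mutants by limma at an adjusted p under 0.05, that is 1011 and 373 genes.

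Afp was the clearest case. It encodes alpha-fetoprotein, the main serum protein of the fetal liver and yolk sac, which is largely shut off after birth. In D2 mutants Afp read 12.23, 11.92, 11.86 and 11.68 after cocaine and 11.63, 11.82 and 11.72 after saline, against 3.88, 4.82, 4.25 and 4.44 after cocaine and 3.96, 4.35 and 4.86 after saline in D2 controls. In D1 mutants it read 11.12, 10.71, 10.84 and 10.61 after cocaine and 10.67, 10.99 and 11.08 after saline, against 4.11, 3.91, 3.92 and 4.36 after cocaine and 4.44 and 3.85 after saline in D1 controls. Every control array lay under the floor and every mutant array lay far above it, with the D2 mutants above the D1 mutants. The lowest D2 mutant exceeded the highest D2 control by 6.77, and the rise was at least 56.6-fold in D2 and at least 29.2-fold in D1 neurons.

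Bmper, a secreted protein that binds bone morphogenetic proteins (BMPs) and modulates their signal, was already measured in controls. In D2 mutants Bmper read 9.88, 9.41, 9.57 and 9.75 after cocaine and 9.78, 9.75 and 10.10 after saline, against 7.89, 8.18, 7.69 and 8.16 after cocaine and 8.05, 7.94 and 7.92 after saline in D2 controls. In D1 mutants it read 9.55, 9.83, 9.41 and 9.90 after cocaine and 10.21, 10.09 and 9.74 after saline, against 7.96, 7.87, 7.33 and 8.04 after cocaine and 8.09 and 8.05 after saline in D1 controls. All 13 control arrays lay above the floor, and the mutants stood 3.46-fold higher in D2 and 3.75-fold higher in D1 neurons.

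Corin and Tmprss11a encode serine proteases anchored in the cell membrane. Corin is known from the heart, where it activates atrial natriuretic peptide, and Tmprss11a belongs to a family found mainly in surface epithelia. Corin ran from 8.94 over a median of 9.27 to 9.58 in D2 mutants and from 4.78 over 5.29 to 6.08 in D2 controls. In D1 neurons it ran from 8.92 over 9.18 to 9.28 in mutants and from 5.19 over 5.51 to 6.02 in controls. Only 2 of the 13 control arrays exceeded the floor, and the difference was 3.93 in D2 and 3.58 in D1 neurons, or 3.25 and 3.14 when taken from the floor. Tmprss11a ran from 6.27 over a median of 6.49 to 6.59 in D2 mutants, against 3.92 over 4.83 to 5.01 in D2 controls. In D1 mutants it ran from 6.89 over 7.13 to 7.35, against 4.91 over 5.29 to 5.56 in D1 controls. Tmprss11a was thus at least 1.39-fold higher in D2 and at least 2.21-fold higher in D1 mutants.

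Gbe1, the glycogen branching enzyme, and Hacd2, an enzyme of the elongation cycle of very long fatty acids, are metabolic enzymes that many tissues use. In D2 mutants Gbe1 read 9.77, 10.12, 9.85 and 10.34 after cocaine and 9.59, 9.43 and 10.35 after saline, against 5.55, 5.69, 5.36 and 6.15 after cocaine and 5.72, 5.52 and 6.02 after saline in D2 controls. In D1 mutants it read 8.86, 9.16, 8.68 and 8.63 after cocaine and 8.44, 8.84 and 8.02 after saline, against 5.86, 5.98, 5.70 and 5.81 after cocaine and 6.33 and 5.93 after saline in D1 controls. Of the 13 control arrays 3 exceeded the floor, and every D2 mutant array lay above every D1 mutant array. Hacd2 was above the floor on all 13 control arrays. It ran from 11.32 over a median of 11.64 to 11.78 in D2 mutants and from 9.31 over 9.49 to 9.91 in D2 controls. In D1 neurons it ran from 11.02 over 11.32 to 11.56 in mutants and from 9.03 over 9.28 to 9.65 in controls. The mutants stood 4.04-fold higher in D2 and 4.20-fold higher in D1 neurons.

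The remaining 3 genes act inside the cell. Dach2 is a nuclear cofactor that works with Eya proteins in developing muscle and other organs. Ccdc141 is a coiled-coil protein known in the mouse for the migration of cortical neurons, and Pkib is an inhibitor of protein kinase A. In D2 mutants Dach2 read 10.62, 10.46, 10.22 and 10.49 after cocaine and 10.45, 10.38 and 10.70 after saline, against 4.76, 4.03, 4.52 and 4.72 after cocaine and 4.68, 5.09 and 4.93 after saline in D2 controls. In D1 mutants it read 10.90, 10.56, 10.70 and 10.77 after cocaine and 10.95, 10.95 and 11.01 after saline, against 4.84, 4.78, 4.86 and 4.97 after cocaine and 4.47 and 4.55 after saline in D1 controls. No control array reached the floor, and Dach2 was at least 22.3-fold higher in D2 and at least 28.9-fold higher in D1 mutants.

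In D2 mutants Ccdc141 read 10.01, 9.96, 9.80 and 9.74 after cocaine and 9.68, 9.80 and 10.14 after saline, against 3.94, 3.86, 3.78 and 3.71 after cocaine and 3.55, 3.90 and 3.75 after saline in D2 controls. In D1 mutants it read 8.82, 8.64, 8.69 and 8.91 after cocaine and 9.43, 8.86 and 8.63 after saline, against 4.02, 4.46, 3.70 and 4.26 after cocaine and 4.03 and 4.09 after saline in D1 controls. Its D2 and D1 mutants did not overlap, and it was at least 14.7-fold higher in D2 and at least 7.30-fold higher in D1 mutants. Pkib ran from 7.13 over a median of 7.63 to 7.80 in D2 mutants and from 4.43 over 4.80 to 5.58 in D2 controls. In D1 neurons Pkib ran from 6.25 over 6.81 to 7.03 in mutants and from 4.10 over 5.46 to 5.90 in controls. Its D1 groups came closest to each other of all the pairs, with a gap of 0.35 between the lowest mutant and the highest control, and the rises were at least 2.84-fold in D2 and at least 1.68-fold in D1 mutants.

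**Figure D1:**
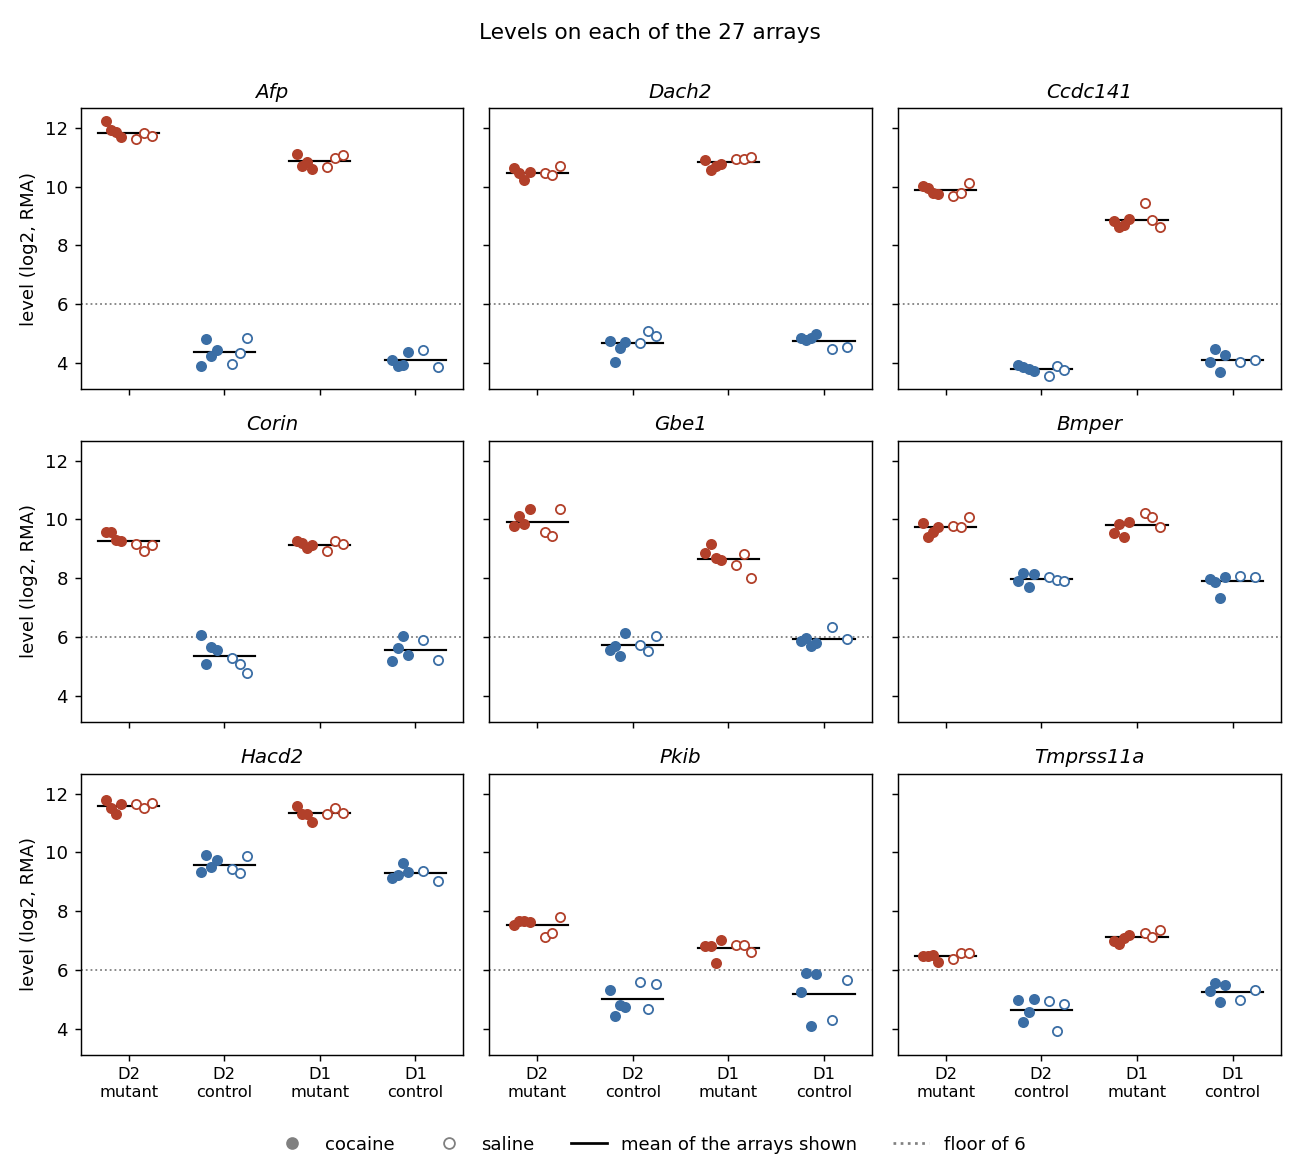
Level of each gene on every array (vertical axis, log2 RMA value) for D2 mutants, D2 controls, D1 mutants and D1 controls; filled points are cocaine and open points saline arrays, the line is the mean of the arrays shown and the dotted line the floor of 6. All mutant points lie above all control points in every panel, and Bmper and Hacd2 alone have all 13 control points above the floor.

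The description of these genes as silent outside the mutants therefore held for some and not for others. Afp, Dach2, Ccdc141, Pkib and Tmprss11a were under the floor on all 13 control arrays. Corin and Gbe1 had means under it with 2 and 3 arrays above it, and Bmper and Hacd2 were plainly measured in control D2 and D1 neurons. Of all tested genes, 5.34% (642 genes) had a control mean under the floor. The filter keeps that share low, since tested genes had to exceed the floor on at least 3 arrays. Of the 9 genes, 6 passed it only through their mutants. The share is therefore no measure of how unusual the silence of these genes is.

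The sequence before the start of each gene was read to see what the members share besides their response. RefSeq windows of 300 bases, from 250 before to 50 after the annotated start (GRCm38.p6), were matched by symbol for all 9 genes, with 11 windows in all because Dach2 and Pkib have 2 each. Shown here are the 250 bases before the start of Afp and Ccdc141, which were at background in controls, and of Bmper and Hacd2, which were not. Capitals mark each CpG, the pair of letters where DNA methylation mostly occurs, and on either strand the core promoter motif TATAAA, the GC-rich motif GGGCGG, the E-box palindrome CACGTG and the cell cycle gene motif TTCCCGC. The Afp window is chr5:90490464-90490713 on the plus strand, that of Ccdc141 is chr2:77170636-77170885 on the minus strand, that of Bmper is chr9:23222826-23223075 on the plus strand and that of Hacd2 is chr16:35022171-35022420 on the plus strand.
Afp: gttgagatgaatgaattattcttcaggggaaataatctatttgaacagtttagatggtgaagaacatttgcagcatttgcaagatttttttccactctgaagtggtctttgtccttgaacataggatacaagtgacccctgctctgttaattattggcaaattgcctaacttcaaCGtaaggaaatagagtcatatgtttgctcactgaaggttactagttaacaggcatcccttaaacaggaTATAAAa
Ccdc141: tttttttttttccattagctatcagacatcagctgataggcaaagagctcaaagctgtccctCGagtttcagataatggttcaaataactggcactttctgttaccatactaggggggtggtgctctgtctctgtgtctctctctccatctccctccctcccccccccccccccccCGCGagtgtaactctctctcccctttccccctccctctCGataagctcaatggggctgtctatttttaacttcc
Bmper: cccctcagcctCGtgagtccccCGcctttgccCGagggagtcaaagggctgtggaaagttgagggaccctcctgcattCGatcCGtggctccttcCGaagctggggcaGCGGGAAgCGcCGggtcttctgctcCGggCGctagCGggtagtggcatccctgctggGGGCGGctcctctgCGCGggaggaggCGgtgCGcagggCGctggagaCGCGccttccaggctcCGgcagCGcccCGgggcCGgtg
Hacd2: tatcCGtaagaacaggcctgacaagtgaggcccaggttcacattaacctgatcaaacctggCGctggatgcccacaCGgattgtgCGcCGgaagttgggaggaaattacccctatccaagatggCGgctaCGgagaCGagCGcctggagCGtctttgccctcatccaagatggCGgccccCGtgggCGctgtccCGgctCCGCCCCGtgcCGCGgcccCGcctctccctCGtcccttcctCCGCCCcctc
In these 250 bases Afp had 1 CpG and Ccdc141 had 4, while Bmper had 24 and Hacd2 had 21. Over the 300 bases, the number of CpG relative to that expected from the C and G content was 0.25 for Afp, 0.39 for Ccdc141, 0.789 for Bmper and 0.813 for Hacd2. The median over 12506 windows of tested genes was 0.744. Of the 11 windows, 8 lay below that median, including Corin (0.267), Tmprss11a (0.273), Gbe1 (0.65), both windows of Pkib (0.323 and 0.0539) and the second window of Dach2 (0.494). The first window of Dach2 (0.973), which holds a run of alternating C and G, lay above it with Bmper and Hacd2. Low values were common among dim genes in general: the 626 windows of tested genes with a control mean under the floor had a median of 0.472. Over all 32841 windows, tested or not, the median was 0.384.

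**Figure D2:**
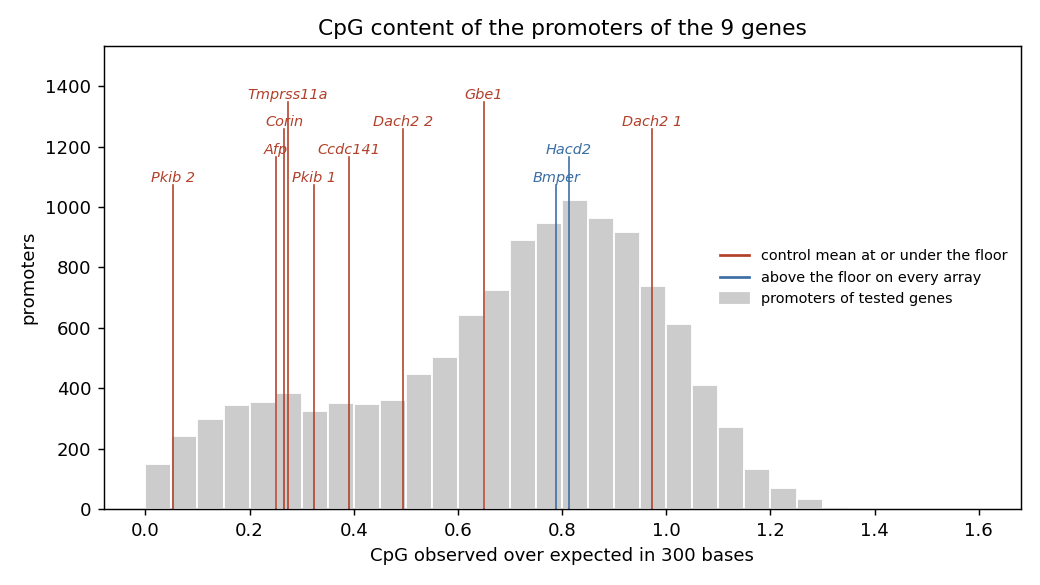
Distribution of the observed over expected CpG ratio (horizontal axis) over the 300-base windows of tested genes (grey bars, number of windows on the vertical axis), with a vertical line for each of the 11 windows of the 9 genes. Windows of genes with a control mean at or under the floor are red and lie mostly left of the main peak, with the first Dach2 window at 0.973 as the exception, and the blue lines of Bmper (0.789) and Hacd2 (0.813) lie within the peak.

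Of short motifs searched as exact letters on both strands, TATAAA was present in 2 of the 11 windows, those of Afp and the first of Dach2, against 7.36% of the windows of tested genes. In Afp, shown above, it starts 7 bases before the annotated start. GGGCGG was present in 5 of the 11 windows, against 60.6% of the windows of tested genes, and TTCCCGC in 1, that of Bmper, against 7.54%. CACGTG was present in 0 of the 11, against 9.91%. Over all 32841 windows, tested or not, the shares were 13.6% for TATAAA, 35.7% for GGGCGG, 4.6% for TTCCCGC and 7.15% for CACGTG. These matches describe letters in the windows and say nothing about binding.

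**Figure D3:**
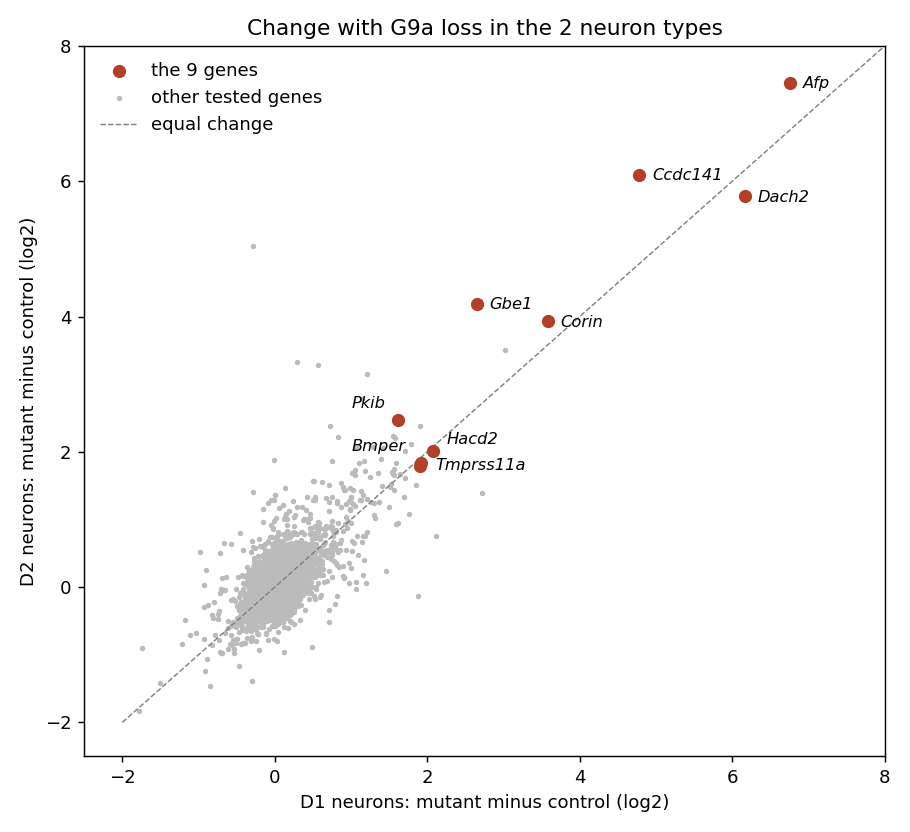
Mutant minus control difference in D2 neurons (vertical axis, log2) against that in D1 neurons (horizontal axis, log2) for every tested gene in grey and the 9 genes in red; the dashed line marks equal differences. Afp lies farthest out at 7.45 in D2 and 6.76 in D1, while Ccdc141 and Gbe1 lie well above the line; for Afp, Dach2, Ccdc141, Pkib and Tmprss11a the plotted differences are taken against controls under the floor.

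The 12017 genes were also ordered by the smaller of their 2 fitted differences, to show which other genes lay near the set. All 9 genes were within the first 20, which their selection fixes, and their own order is not given because it rests on control levels under the floor. No threshold separated them from the others. The 11 further genes among the first 20 were Bank1, a B cell adaptor protein (3.50 in D2 and 3.01 in D1), Gstm7, Plce1, Apod, Cyp2c23, Tnnt2, 4932412D23Rik, Phex, Ermn, Sec14l3 and Kl. Fitted differences over 1 in both neuron types were found for 59 genes.

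For several members the table holds further probe sets, and these did not always show the same rise. Both Dach2 probe sets and both Hacd2 probe sets had mutant minus control differences over 1 in both neuron types. Of 5 Afp probe sets 3 did so, while another, on which all arrays read 4.64 to 5.13, differed by 0.03 in D2 and -0.04 in D1. Of 6 Ccdc141 probe sets 3 had differences over 1 in both neuron types, and of 2 Pkib probe sets 1 did. The probe set with the highest mean over the 27 arrays, mutants included, is the one used throughout. With all probe sets averaged, the fitted D2 difference was 3.81 instead of 7.45 for Afp and 2.61 instead of 6.10 for Ccdc141. In D1 neurons it was 3.18 instead of 6.76 for Afp and 1.74 instead of 4.78 for Ccdc141.

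The first tested question was whether the effect of G9a loss differed between the neuron types. The fitted difference was larger in D2 than in D1 neurons for Ccdc141 and Gbe1, and the other 7 genes did not pass. The mutant minus control difference of Ccdc141 was 6.10 in D2 (SE 0.114) and 4.78 in D1 (SE 0.122), which differed by 1.31 (95% interval 0.97 to 1.66, limma adjusted p = 3.02e-05). For Gbe1 it was 4.18 in D2 (SE 0.151) and 2.65 in D1 (SE 0.162), which differed by 1.54 (1.08 to 1.99, limma adjusted p = 0.000211). The controls of Ccdc141 lay under the floor on all 13 arrays, so that -0.31 of its difference is a D2 minus D1 gap between background levels. What was measured above the floor is the gap of 1.01 between its D2 and D1 mutants (limma adjusted p = 1.8e-07), and from the floor its rises were at least 3.87 in D2 and at least 2.87 in D1 neurons. The mean of Gbe1 also lay under the floor in both sets of controls, with a D2 minus D1 gap of -0.26, against 1.27 between its mutants (limma adjusted p = 4e-07). The test uses the mutant and control values on which the genes were picked, so its p-values are not free of that selection. Over all tested genes 0.990% passed this test, 0.657% with the larger value in D2.

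Without the array of conflicting labels the difference was 1.34 for Ccdc141 (limma adjusted p = 4.37e-05) and 1.48 for Gbe1 (limma adjusted p = 0.000451). With that array counted as a control neither passed, at 0.75 for Ccdc141 (limma adjusted p = 0.871) and 1.02 for Gbe1 (limma adjusted p = 0.737). That setting put an array with Ehmt2 at 8.96 among D2 controls at 10.67 to 11.01. In D2 arrays the oligodendrocyte markers moved with the mutation too, with 6 of 8 tested markers higher in D2 mutants and 1 of 8 higher in D1 mutants. Their summed log2 level was 12.46 to 12.86 in D2 mutants and 11.47 to 12.41 in D2 controls, against 11.50 to 12.09 in D1 mutants and 11.51 to 11.92 in D1 controls. Of the other marker lists, 1 of 6 tested astrocyte genes and 2 of 4 ependyma and choroid plexus genes (Kl at 2.23, Clic6 at 0.44) were higher in D2 mutants, and Kl alone in D1 mutants (1.55). None of 3 microglial genes, 1 endothelial gene, 9 projection neuron genes and 2 hepatocyte genes passed by limma in either type, with 1, 0, 1 and 1 at an unadjusted p under 0.05 in D2 and 0 in D1, and no blood gene was bright enough to be tested. The part of these cell types in the D2 results was not tested.

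Of the 7 genes that did not pass, Afp, Dach2, Pkib and Tmprss11a had every control array under the floor, so their differences contain background gaps as well. Afp had a difference of 0.69 (interval 0.26 to 1.12, limma adjusted p = 0.129) and Pkib one of 0.85 (0.13 to 1.56, limma adjusted p = 0.31). Dach2 had a difference of -0.39 (-0.68 to -0.10, limma adjusted p = 0.215), which passed without D2 control cocaine replicate 2 (-0.47, limma adjusted p = 0.0454). Afp passed when all its probe sets were averaged (0.64, limma adjusted p = 0.0015). Corin had a difference of 0.35 (-0.07 to 0.76, limma adjusted p = 0.523). For Bmper, measured above the floor throughout, the interval ran from -0.46 to 0.23, and for Hacd2, likewise measured, from -0.39 to 0.27. The interval of Tmprss11a, from -0.50 to 0.34, sets a gap of -0.67 between the mutants against one of -0.60 between controls at background.

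Within the mutants the levels themselves also differed between D2 and D1 neurons. Of the 9 genes 4 were higher in D2 mutants and 2 were lower, while over all tested genes 25.8% were higher and 16.6% lower. The genes were picked on these mutant values, so the p-values here are not free of that selection. Afp, Dach2, Ccdc141, Pkib and Tmprss11a also entered the tested set only through their mutants, so the shares over all genes are no like measure for them. Gbe1 was higher by 1.27 (limma adjusted p = 4e-07), Ccdc141 by 1.01 (limma adjusted p = 1.8e-07), Afp by 0.95 (limma adjusted p = 9.33e-06) and Pkib by 0.76 (limma adjusted p = 0.0125). For these 4 genes all 7 D2 mutant arrays lay above all 7 D1 mutant arrays. Dach2 was lower in D2 mutants, with a difference of -0.37 (limma adjusted p = 0.00277) and overlapping arrays, and Tmprss11a was lower with a difference of -0.67 (limma adjusted p = 0.000374) and no overlap. Corin (0.11, interval -0.17 to 0.39), Bmper (-0.08, -0.31 to 0.16) and Hacd2 (0.25, 0.02 to 0.47, limma adjusted p = 0.0704) did not pass. Without the array of conflicting labels 6 genes passed, and with it counted as a control 1 did, Tmprss11a.

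In controls, where most of these genes were at background, D2 and D1 neurons differed in 1 of the 9 genes, against 29.0% of all tested genes. Tmprss11a was lower in D2 controls by limma, with a difference of -0.60 (adjusted p = 0.00345), but every control array lay under the floor, at 3.92 to 5.01 in D2 controls and 4.91 to 5.56 in D1 controls. Hacd2, which was above the floor on every control array, differed by 0.30 (limma adjusted p = 0.0524). Without the 3 arrays with a high Ttr level it passed, at 0.38 (limma adjusted p = 0.0186). The Ccdc141 difference of -0.31 (limma adjusted p = 0.0598), which passed without those arrays too (-0.37, limma adjusted p = 0.0107), compares readings of 3.55 to 3.94 in D2 controls with 3.70 to 4.46 in D1 controls, all of them background.

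**Figure D4:**
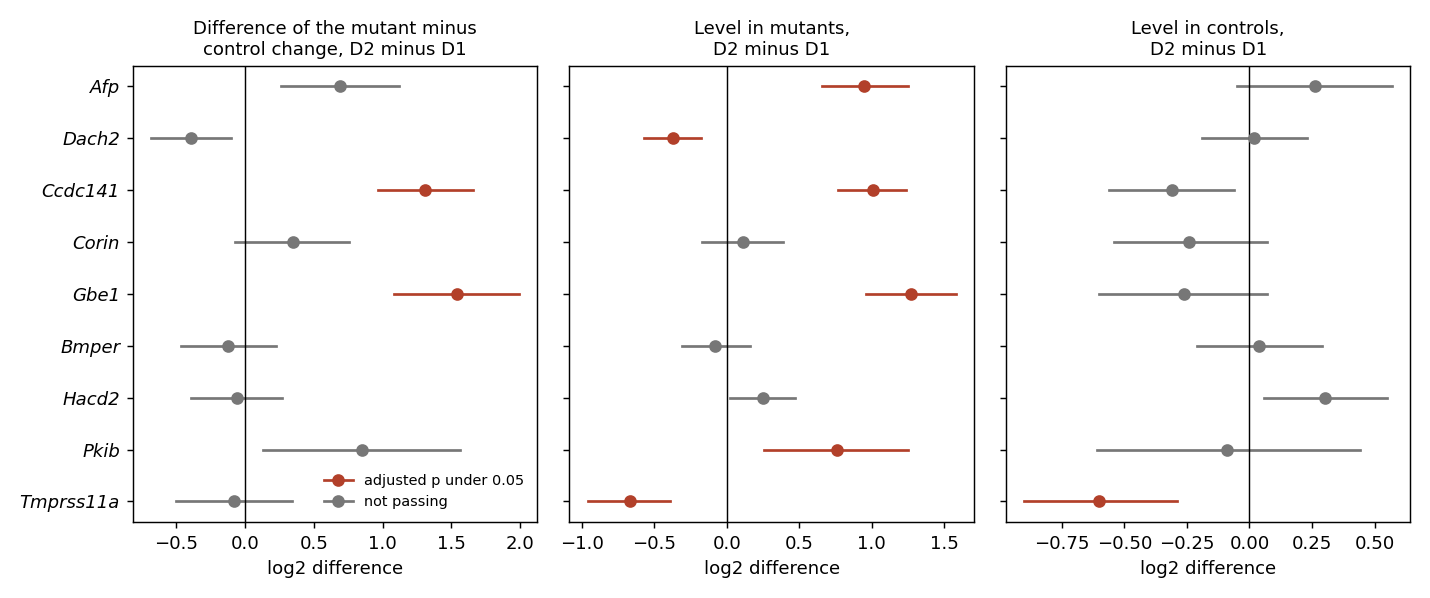
Differences between D2 and D1 neurons (horizontal axes, log2) for the 9 genes, with 95% intervals: left, the difference of the mutant minus control change; middle, the level in mutants; right, the level in controls. Red points have an adjusted p under 0.05 and grey points do not. Ccdc141 and Gbe1 lie to the right in the left and middle panels, and Tmprss11a lies to the left in the middle and right panels, the right panel comparing background levels for 5 of the 9 genes.

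Cocaine against saline tested whether the drug moved the levels. None of the 9 genes passed in D2 mutants, D1 mutants, D2 controls or D1 controls, where 0%, 0.0915%, 0.133% and 0.0666% of all tested genes passed by limma. In D2 mutants, which had 0 calls among all genes, 588 genes had an unadjusted p under 0.05, and 0 of the 9 were among them. The differences of the 9 genes ran from -0.23 to 0.34 in D2 mutants and from -0.34 to 0.40 in D1 mutants. At an unadjusted p under 0.05 there was 1 of these genes in D1 mutants, Bmper (-0.34, limma adjusted p = 0.407). In controls, 5 of the 9 genes were under the floor on all 13 arrays. Corin and Gbe1 had means under it over both drugs, though Gbe1 averaged 6.13 in D1 controls after saline. The control values of these 7 genes are therefore not read as showing whether cocaine changed them. The 2 genes measured in controls were Bmper, with a difference of 0.01 in D2 controls (interval -0.33 to 0.34) and -0.27 in D1 controls (-0.65 to 0.11), and Hacd2, with 0.08 in D2 controls (-0.24 to 0.40) and 0.14 in D1 controls (-0.22 to 0.51). Unadjusted p-values under 0.05 were found in controls for Dach2 and Corin in D2 and for Dach2 in D1 neurons, all on means under the floor.

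The rise with G9a loss was accordingly measured separately after each drug. For Bmper it was 1.67 after cocaine and 1.91 after saline in D2 neurons, and 1.87 after cocaine and 1.94 after saline in D1 neurons. For Hacd2 it was 1.95 after cocaine and 2.07 after saline in D2 neurons, and 1.96 after cocaine and 2.18 after saline in D1 neurons. The readings of Afp, Dach2, Ccdc141 and Gbe1 after each drug are given above. The test of the difference between the drugs passed for 0 of the 9 genes in either neuron type, with the smallest limma adjusted p at 0.952 in D2 (Dach2 and Pkib) and 0.29 in D1 (Dach2), genes whose controls were at background. It passed for 0 of all tested genes as well, although 583 genes in D2 and 1340 in D1 had an unadjusted p under 0.05.

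For each gene the nearest tested gene on either side was taken in the GRCm38.p6 gene order, which gave 18 neighbours. The gaps ran from 1.18 kb (Atp10d beside Corin) to 4750 kb (Gm36457 beside Gbe1), so not all of these neighbours are close. Of these, 2 were higher in D2 mutants (8.41% of all genes were) and 2 in D1 mutants (3.10%), and 0 were lower in either by limma (3.82% and 1.12% of all genes), nor at an unadjusted p under 0.05. The median difference of the 18 was 0.08 in D2 and 0.04 in D1 neurons.

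Afm, the neighbour that moved most, encodes afamin, a serum protein of the albumin family like alpha-fetoprotein, and begins 10 kb after Afp. It averaged 7.47 in D2 mutants and 5.99 in D2 controls, and 6.98 in D1 mutants and 6.01 in D1 controls. The differences were 1.49 in D2 (limma adjusted p = 4.82e-09) and 0.90 in D1 (limma adjusted p = 9.68e-05). Alb, the albumin gene 14.1 kb on the other side of Afp, was too dim to be tested, at a mean of 5.78 in D2 mutants and 5.89 in D2 controls, and 5.81 in D1 mutants and 5.78 in D1 controls. Fabp7, a fatty acid binding protein of radial glia and astrocytes that lies 43.8 kb from Pkib, was higher by 0.64 in D2 mutants (limma adjusted p = 0.00292) and differed by -0.12 in D1 (limma adjusted p = 0.82). Robo1, an axon guidance receptor and the nearest tested gene after Gbe1, though far from it, was higher by 0.75 in D1 mutants (limma adjusted p = 0.0279) and differed by 0.47 in D2 (limma adjusted p = 0.103).

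Close neighbours of other members gave small values. Sestd1, 6.57 kb from Ccdc141, differed by 0.03 in D2 and 0.11 in D1, and Ttn, the titin gene 27.3 kb on its other side, was too dim to be tested. Atp10d, 1.18 kb from Corin, differed by 0.11 in D2 and 0.27 in D1. Adcy5, a striatal adenylyl cyclase next to Hacd2, differed by -0.13 in D2 and 0.12 in D1. Tmprss11d and Tmprss11g, protease genes on either side of Tmprss11a, were at background in all 4 sets of arrays, with means between 2.99 and 3.14.

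**Figure D5:**
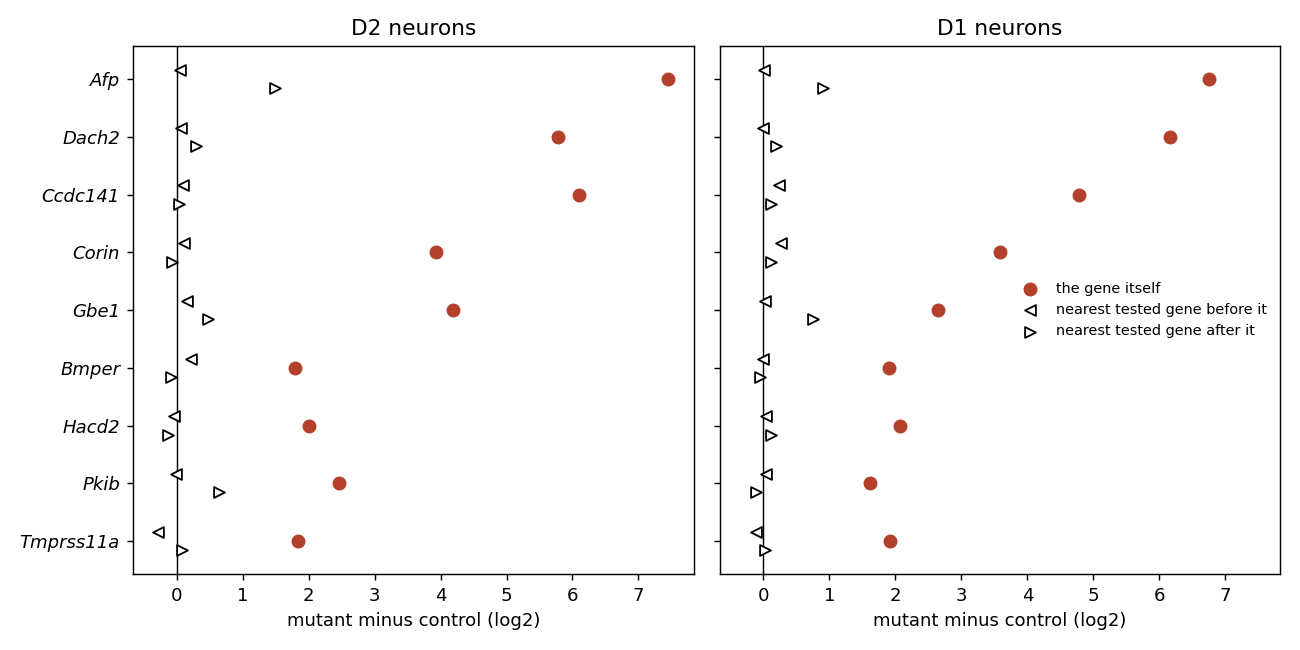
Mutant minus control difference (horizontal axis, log2) of each of the 9 genes (red) and of the nearest tested gene before it (left-pointing triangle) and after it (right-pointing triangle), in D2 neurons on the left and D1 neurons on the right. Apart from Afm beside Afp, at 1.49 and 0.90, the neighbours lie within 1 of zero.

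The 9 genes were mostly long. Their median length from annotated start to end was 164 kb, against 23.8 kb for the 11992 tested genes with a length, and Dach2 at 539 kb was longer than 98.8% of them. Afp, at 18.2 kb, was the exception, longer than 41.9% of them. Length and the rises were not tested against each other.

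The pathways in which the members act were then read from lists of further genes, by the number that passed in each direction. Over all tested genes 8.41% were higher and 3.82% lower in D2 mutants, and 3.10% were higher and 1.12% lower in D1 mutants, and the lists were not tested against these shares. Of 6 tested genes on the liver and fetal serum list 1 was higher in D2 and in D1 mutants, and that gene was Afm. The list's median was -0.06 in D2 and -0.02 in D1, against 0.02 and 0.01 over all tested genes, and 14 of its 23 genes on the array never exceeded the floor. None of the 3 tested genes reported as Afp repressors passed by limma in either neuron type, and 0 of them had an unadjusted p under 0.05. Hepatocyte markers gave a summed level of 8.78 to 9.09 in D2 mutants and 8.90 to 9.20 in D2 controls, and of 8.86 to 9.13 in D1 mutants and 8.90 to 9.26 in D1 controls.

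Among 7 tested genes of the network that joins the Dach, Eya and Pax families, 1 was higher in D2 mutants and 0 in D1 mutants. It was Dach1, the relative of Dach2, with a difference of 0.51 in D2 (limma adjusted p = 0.0405) and 0.21 in D1 (limma adjusted p = 0.702). In the natriuretic peptide pathway of Corin, 1 of 4 tested genes was lower in D2 mutants, Mme, a peptidase that degrades these peptides (-0.43, limma adjusted p = 0.000729), and 0 passed in D1, where 1 had an unadjusted p under 0.05. Of 13 heart and muscle genes 4 were higher and 2 lower in D2 mutants, and 3 were higher and 0 lower in D1 mutants. Casq2, the calcium store protein of heart muscle, differed by 1.54 in D2 and 0.87 in D1, and Tnnt2, cardiac troponin T, by 1.61 in D2 and 1.70 in D1, all 4 passing. Myh7 differed by 0.36 in D2 (limma adjusted p = 0.0133) and 0.50 in D1 (limma adjusted p = 0.0033). Tpm1 went the other way, at -0.52 in D2 (limma adjusted p = 0.0011) and -0.35 in D1 (limma adjusted p = 0.0806). The list's median was 0.03 in D2 and -0.03 in D1. Of 4 tested membrane serine proteases 1 was higher in D2 mutants, Tmprss4 at 0.48 (limma adjusted p = 0.00313).

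Of 19 tested genes of glycogen metabolism 3 were higher and 2 lower in D2 mutants and 0 passed by limma in D1, where 4 had an unadjusted p under 0.05. They included Ppp1r3c (0.51) and Pygb (0.28), which promote glycogen storage and break glycogen down, and the lower Ppp1r3f (-0.22) and Nhlrc1 (-0.22). Of 15 tested genes of fatty acid elongation 3 were higher in D2 mutants and 1 in D1 mutants. Hacd1, the relative of Hacd2 that acts at the same step, was higher by 0.90 in D2 (limma adjusted p = 9.01e-08) and 0.54 in D1 (limma adjusted p = 0.000761). Elovl6 and Elovl5, which catalyse the first step, were higher by 0.50 and 0.26 in D2.

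Of 24 tested BMP pathway genes 2 were higher and 5 lower in D2 mutants, and 0 were higher and 2 lower in D1 mutants. Fst, which encodes follistatin, a secreted antagonist of activins and BMPs, averaged 9.15 in D2 mutants and 10.09 in D2 controls, and 6.11 in D1 mutants and 7.83 in D1 controls. Its difference was -0.90 in D2 (limma adjusted p = 2.9e-05) and -1.75 in D1 (limma adjusted p = 1.98e-09). The ligand gene Bmp2 differed by -0.46 in D2 and -0.75 in D1, both passing, and Bmp7 (-0.80) and Bmp6 (-0.38) passed in D2. None of the 14 tested genes of protein kinase A and its inhibitors passed by limma in either neuron type, with 4 in D2 and 0 in D1 at an unadjusted p under 0.05. Of the 10 tested genes of the G9a complex 2 were lower in D2 mutants, Ehmt2 and Cbx5 (-0.30, limma adjusted p = 0.00105), and Ehmt2 alone was lower in D1 mutants.

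The genes outside the set whose levels followed it most closely were found by correlation over the 27 arrays with the mean of the 9 standardised genes. They were Bank1 (r = 0.982), Plce1, a phospholipase C (0.979), Abcc12, a membrane transporter (0.972), Dnah1, a dynein heavy chain of cilia (0.970), Cyp2c23, a cytochrome P450 (0.969), and Igbp1b (0.964). The 9 genes themselves correlated with that mean at 0.918 for Tmprss11a to 0.994 for Ccdc141. These correlations are a description, since all arrays share the contrast between mutants and controls. Bank1, the first of these, had control means above the floor. It averaged 10.87 in D2 mutants and 7.35 in D2 controls, and 10.88 in D1 mutants and 7.89 in D1 controls.

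Among the mutants, the remaining Ehmt2 level had no relation to the level of any of the 9 genes that passed. Over 18 relations, 9 genes in 7 D2 and 7 D1 mutant arrays each, Pearson's r ran from -0.84 to 0.65 and 13 were negative. The lowest was that of Dach2 in D1 mutants, with r = -0.84 (two-sided exact permutation p = 0.0151, adjusted over the 18 relations 0.271) and Spearman's rho = -0.86 (exact permutation p = 0.0238, adjusted 0.429). Without the 2 arrays farthest from the median of Ehmt2 its r was -0.83. Ccdc141 in D1 mutants had r = -0.75 (exact permutation p = 0.0466, adjusted 0.327) and rho = -0.36 (exact permutation p = 0.444, adjusted 0.84), and its r was -0.08 without those 2 arrays. When all probe sets of a gene were averaged, Ccdc141 in D1 mutants passed (r = -0.97, exact permutation p = 0.000595, adjusted 0.0107) and no other relation did. These relations pool the drugs, between which the D1 loss of Ehmt2 differed by the value given at the start. Each drug held 3 or 4 of these arrays, too few for a value within a drug.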

How the data were processed

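Polyribosome-associated mRNA of D2 and D1 neurons was measured on 27 arrays. The deposited values are log2 signals of 45101 probe sets, which, per the submitters' processing notes, the authors obtained with RMA in Expression Console 1.1 (Affymetrix). The series' design instead names scaling in another program of the same company, so the sources disagree on this step. RMA was taken from the processing notes and from the scale of the values. RMA evens out the arrays, so a shift shared by all genes cannot be seen. Gene symbols came from the platform's annotation: 34945 probe sets had 1 symbol, 932 several and 9160 none, besides 64 controls. Each of 18193 genes was represented by its brightest probe set, and 12017 genes above 6 on at least 3 arrays were fitted in limma 3.58.1 (R 4.3.3) on the means of the 8 groups, drugs weighted equally. Calls had a Benjamini-Hochberg adjusted p under 0.05 over all genes tested. The fit was tested on simulated data. Replicates are separate mice per the labels, so p-values measure the spread between mice. No 2 arrays were alike (smallest mean absolute difference 0.134). The number of arrays limits the precision.

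The members and the gene lists were chosen with earlier results of these data known. Named are the members, Ehmt2, up to 4 passing genes per list by smallest p, nearest neighbours, the 6 most alike genes and the first 20 by the smaller rise. Alternatives changed the probe set, filter, scaling, moderation, array weights, replicate block and label conflict, or left out the arrays with a high Ttr level or each array. Same-numbered arrays did not deviate together (25 of 83 pairs correlated over 0.1), so the numbers were not treated as pairs.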

Additional observations from a re-analysis of the deposited data

Results flagged for a closer look

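The test of the difference of the G9a effect used the values the genes were picked on. By it, the mutant minus control difference was larger in D2 than in D1 neurons for Ccdc141 and Gbe1. The excess was 1.31 for Ccdc141 and 1.54 for Gbe1 on the log2 scale. Of these, 1.01 for Ccdc141 and 1.27 for Gbe1 lay between the mutants, and the rest between controls under or mostly under the floor. Tmprss11a on D2 mutant cocaine replicate 4 read 6.27 and lay apart from the other 3 arrays of its group at 6.46, 6.49 and 6.5. It was the only such array among 36 combinations of gene and group of 4 arrays, and chance alone sets apart about 1 in 20. This is also the array whose source name contradicts its title.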

How the results depend on the processing

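Over 37 alternatives (16 for the relations to Ehmt2), the counts of the 9 genes that passed were 0 for every cocaine comparison. On D2 mutant cocaine replicate 4 Ehmt2 read 8.96, in the range of the D2 mutants. With this array counted as a control, 0 members instead of 2 had a different G9a effect, 1 instead of 6 differed between D2 and D1 mutants, and 0 instead of 1 between D2 and D1 controls. Leaving out single arrays gave 2 to 3, 6 to 7 and 1 to 3 members in these comparisons. In the mutants Hacd2 was added without D2 mutant cocaine replicate 3 (limma adjusted p = 0.0395) or D1 mutant cocaine replicate 1 (0.0383). In controls Hacd2 or Ccdc141 was added, giving 2 members with the mean of all probe sets, the filter at 7, median centring, or trend and robust moderation, and 3 with array weights or without the high-Ttr arrays. The same 2 genes gave 2 members without D2 mutant cocaine replicates 1 or 3, D2 control saline 2, D2 control cocaine 1 or 3, D1 mutant saline 1 or 3, D1 mutant cocaine 1 or 4 or D1 control saline 1, and 3 without D1 control cocaine 3. Of the relations to Ehmt2, 1 passed when all probe sets were averaged, Ccdc141 in D1 mutants (r = -0.97, exact permutation p = 0.000595, adjusted 0.0107; rho = -0.96, adjusted 0.05; r = -0.92 without the 2 farthest arrays), against 0 otherwise. Averaging all probe sets left Pkib under the filter. With the replicate block the member counts were 2 for the difference of the G9a effect, 6 and 1 for D2 against D1 in mutants and controls, and 0 for cocaine, as without it; 8 of 27 arrays correlated best with their own number. Over all genes, calls for the difference of the G9a effect ranged from 18 to 352 around 119, those for D2 from 855 to 2293 around 1470, those for D1 from 403 to 969 around 507 (319 to 550 without single arrays), and those for cocaine in D1 controls from 0 to 461 around 8. Levels under the floor of 6 entered the fits and the member counts unchanged, although no order is read from them. This limits every result that rests on controls of Afp, Dach2, Ccdc141, Pkib or Tmprss11a. The 1 member counted between D2 and D1 controls, Tmprss11a, is such a result. The causes of these shifts were not tested.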
